A study of Homo sapiens and Mus musculus with 16 samples.

Results

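The genes described here encode the enzymes that make, load and break down miRNAs, the short RNAs that silence mRNAs by base pairing. They are DROSHA, DGCR8, XPO5, RAN, DICER1, TARBP2, PRKRA, EIF2C2 (now AGO2), XRN1 and XRN2. They were chosen by name, for their roles, and all 10 were listed among the 22314 genes of the mRNA table. SK-HEP-1, a human cell line from a liver tumour, was cultured in DMEM with 10% FBS and received DMSO (untreated, U) or, at 0.5 mg/ml, AcFBE (treated, T), the ethanol extract of the fruiting body of the medicinal fungus Antrodia cinnamomea. RNA was taken after 2 or 4 h. The 4 poly(A) RNA libraries are called 2U, 2T, 4U and 4T. With 1 library in each condition there was no replicate for mRNA, so differences at each time are given as values with no test. Small RNA was also sequenced, in 8 libraries of SK-HEP-1 and 4 of BNL CL.2, a mouse liver line given the same doses and times.

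A miRNA gene is first transcribed into a long RNA, from which DROSHA and its partner DGCR8 cut a hairpin in the nucleus. XPO5 carries the hairpin to the cytoplasm together with RAN bound to GTP. DICER1, with its partners TARBP2 and PRKRA, cuts the hairpin to a duplex, and Argonaute 2, the product of EIF2C2, keeps a single strand of it and can slice matched mRNAs. XRN1 (cytoplasm) and XRN2 (nucleus) digest RNA from its 5′ end and have been linked to the turnover of mature miRNAs. Because the pathway is a chain, its mRNAs are taken in the order in which a miRNA meets the enzymes.

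A few mature miRNAs stand in a particular relation to these enzymes. Their counts are taken up below, and the sequences are printed here for description only. Production of miR-484 needs no cut by DROSHA, whereas the let-7 family and the pair miR-103a and miR-107 are known to target the DICER1 mRNA. The sequences are those of RefSeq (table for GRCh38.p14), written 5′ to 3′, with bases 2 to 8, the seed that selects targets, in capitals.
miR-484: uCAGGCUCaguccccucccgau
miR-103a: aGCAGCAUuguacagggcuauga
miR-107: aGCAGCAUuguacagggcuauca
let-7a: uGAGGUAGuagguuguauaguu
let-7f: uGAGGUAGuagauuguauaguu
let-7g: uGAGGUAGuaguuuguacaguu
miR-98: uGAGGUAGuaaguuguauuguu
Counted from the 5′ end, miR-107 differed from miR-103a by G22C, outside the shared seed. Against let-7a, let-7f carried G12A, let-7g carried G12U and U18C, and miR-98 carried G11A and A19U, so these 4 share their seed as well. MIR484 lies at chr16:15737151-15737229 (GRCh37, plus strand), within NDE1. MIR107 lies at chr10:91352500-91352586 in PANK1, and the loci of miR-103a lie at chr5:167987897-167987982 in PANK3 and chr20:3898141-3898218 in PANK2.

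Levels were deposited as FPKM, fragments normalised to transcript length and to the mapped total of the library. Although the scale is per length, the median level of genes above 0 still fell with transcript length, as given below. An order of genes by level is therefore a description only. An FPKM is a share of the library, so that fewer cells with an mRNA and less of it per cell cannot be told apart. The paper gives the mapped reads of each library but not the number behind each gene value. Values were above 0 for 8454 to 10691 genes per library. The 2 h libraries held 2656 (2U) and 1173 (2T) values above 0 but under 0.2 FPKM, while the smallest value above 0 in the 4 h libraries was 0.2 FPKM. Of 11 hepatocyte markers, 8 were listed at 0 in every library, among them ALB, APOA1, TTR and HNF4A, and the summed level of the list was 9.22 to 18.9 FPKM. SERPINA1 made up most of that sum, at 18.7 FPKM (2U), 17.0 (2T), 13.8 (4U) and 8.59 FPKM (4T). All 6 endothelial and all 3 blood markers were listed at 0. Of the mesenchymal markers, VIM stood at 6465 to 13625 FPKM, THY1 at 25.5 to 55.6 FPKM and FN1 at 4.92 to 14.5 FPKM. COL1A2 was listed at 0, and COL1A1 was above 0 in 4T only (0.271 FPKM). The labelled liver origin thus had few of its defining markers above 0, although a 0 in this table cannot be read as absence.

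Among the 10 enzymes, 8 were above 0 in all 4 libraries and 2, DICER1 and XRN1, were listed at 0 in all 4. Averaged over the 4 libraries, RAN was far ahead at 1116 FPKM, between the percentiles 98.2 and 99.0 of the genes above 0 in each library. TARBP2 followed at 19.5 FPKM, then XRN2 at 5.60, PRKRA at 4.75, XPO5 at 4.29, DGCR8 at 2.83, EIF2C2 at 1.37 and DROSHA at 1.004 FPKM. The order was not fixed below RAN, since the range of TARBP2 over the libraries reached down to those of XRN2, XPO5 and DGCR8.

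**Figure D1:**
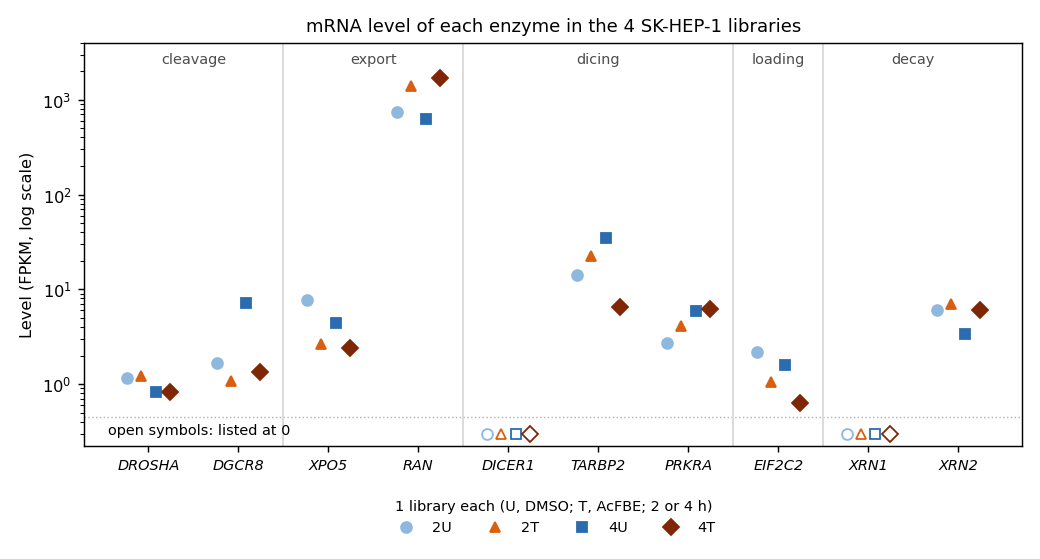
The level of each enzyme (FPKM, log axis) in each of the 4 SK-HEP-1 libraries, 1 symbol per library, in the order of the pathway; open symbols below the dotted line stand for values listed at 0. RAN lies between 624 and 1695 FPKM, TARBP2 between 6.44 and 34.7 FPKM, the others above 0 under 8 FPKM, and DICER1 and XRN1 at 0.

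The nuclear cleavage pair differed in behaviour. DROSHA, the RNase III that makes the cut, stood at 1.17 FPKM (2U), 1.21 (2T), 0.819 (4U) and 0.816 FPKM (4T). The treated library was close to the untreated one at each time, and both 2 h libraries were above both 4 h libraries. The log2 ratio of treated over untreated was 0.05 at 2 h and -0.01 at 4 h, against -0.52 between the untreated libraries of 4 h and 2 h. DGCR8, which binds the hairpin and holds DROSHA in place, stood at 1.65 FPKM (2U), 1.07 (2T), 7.24 (4U) and 1.34 FPKM (4T). Only 4U was high, and both treated libraries were below both untreated ones. The log2 ratio was -0.63 at 2 h and -2.43 at 4 h, where DGCR8 was 5.4-fold lower with AcFBE. The untreated libraries themselves differed by 2.13 (log2, 4U over 2U), and against 2U the 4T library was lower by a log2 ratio of -0.30 only, so that the size at 4 h rests on the 4U library. DROSHA lies at chr5:31400601-31532303 (GRCh37, minus strand) and DGCR8 at chr22:20067744-20099400 (plus strand). Exons of DGCR8 overlap those of TRMT2A on the opposite strand, and the sources used here do not say whether fragments were counted by strand. TRMT2A stood at 2.60, 1.77, 3.72 and 1.31 FPKM in 2U, 2T, 4U and 4T, also highest in 4U, and its part in the DGCR8 values was not tested.

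At the export step the carrier was lower and its GTPase higher with AcFBE. XPO5, the carrier, stood at 7.75 FPKM (2U), 2.62 (2T), 4.39 (4U) and 2.41 FPKM (4T). Both treated libraries were below both untreated ones. XPO5 was 2.96-fold lower with AcFBE at 2 h (log2 -1.57) and 1.82-fold lower at 4 h (log2 -0.87), beside a log2 difference of -0.82 between 4U and 2U. The nearest treated and untreated libraries, 2T and 4U, still differed by -0.75 (log2). RAN, the small GTPase that gives nuclear transport its direction, stood at 738.5 FPKM (2U), 1407 (2T), 624 (4U) and 1695 FPKM (4T). Here the treated libraries were above the untreated ones, by 1.90-fold at 2 h (log2 0.93) and 2.72-fold at 4 h (log2 1.44). The untreated libraries differed by -0.24 and the treated ones by 0.27 on the log2 scale, both smaller than either ratio. Among all genes with a ratio, RAN stood at percentile 75.4 at 2 h and 93.9 at 4 h. XPO5 lies at chr6:43490072-43543775 (minus strand) and shares exonic sequence with POLR1C on the other strand, a gene at 55.0 to 75.6 FPKM. RAN lies at chr12:131356582-131362223 (plus strand) and has 9 named pseudogenes, so its level is uncertain where reads could be split among near-identical copies.

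The dicing step gave no value for the enzyme itself. DICER1, an RNase III at chr14:95552565-95624347 (minus strand), was listed at 0 in 2U, 2T, 4U and 4T, so no ratio could be formed. Its exons overlap those of DICER1-AS1 on the opposite strand. TARBP2, a double-stranded RNA binding partner of DICER1, stood at 14.1 FPKM (2U), 22.6 (2T), 34.7 (4U) and 6.44 FPKM (4T). The libraries of treated and untreated cells overlapped, with 4T lowest and 4U highest. TARBP2 was 1.60-fold higher with AcFBE at 2 h (log2 0.68) and 5.4-fold lower at 4 h (log2 -2.43), and the untreated libraries differed by 1.30 (log2, 4U over 2U). PRKRA, the related partner that is also an activator of the kinase PKR, stood at 2.70 FPKM (2U), 4.11 (2T), 5.94 (4U) and 6.27 FPKM (4T). Its groups overlapped, and both 4 h libraries were above both 2 h libraries. The log2 ratio of treated over untreated was 0.60 at 2 h and 0.08 at 4 h, against 1.13 for 4U over 2U. TARBP2 lies at chr12:53894705-53900215 (plus strand) and PRKRA at chr2:179296019-179316239 (minus strand). The exons of both overlap transcripts of the opposite strand, PJVK (in the table under its older symbol DFNB59, at 0 to 0.275 FPKM) and the lncRNA CHROMR for PRKRA, and an unnamed lncRNA for TARBP2.

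At the loading step, EIF2C2 (chr8:141530255-141645732, minus strand) stood at 2.18 FPKM (2U), 1.05 (2T), 1.59 (4U) and 0.637 FPKM (4T). Both treated libraries were below both untreated ones. EIF2C2 was 2.08-fold lower with AcFBE at 2 h (log2 -1.06) and 2.504-fold lower at 4 h (log2 -1.32), and the untreated libraries differed by -0.45 on the log2 scale. As deposited, it alone of the enzymes differed by 2-fold or more in the same direction at both times, which 8.01% of 7678 genes did in the lower and 6.56% in the higher direction. Measured against the untreated library of the other time, the log2 ratio was -0.60 for 2T and -1.78 for 4T, so the 2-fold difference at 2 h depended on 2U. At 4 h it was -0.96 with libraries scaled to their upper quartile, just under 2-fold. With a pseudocount of 1 FPKM it was -0.63 at 2 h and -0.66 at 4 h. Against the geometric mean of 2U and 4U it was -0.83 at 2 h. DGCR8 (-1.70 and -1.37) and XPO5 (-1.16 and -1.28) were instead 2-fold or more lower at both times. The share of all genes lower against that mean was not counted.

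The decay enzymes were a gene at 0 and a gene with modest differences. XRN1, the main cytoplasmic 5′ exonuclease of decapped mRNA, encoded at chr3:142025449-142166904 (minus strand), was listed at 0 in 2U, 2T, 4U and 4T. XRN2, its nuclear relative, which also takes part in ending transcription, stood at 6.01 FPKM (2U), 6.94 (2T), 3.39 (4U) and 6.08 FPKM (4T). The 4U library was low and the treated libraries were above both untreated ones, 4T by a log2 difference of 0.02 from 2U. XRN2 was 1.15-fold higher with AcFBE at 2 h (log2 0.21) and 1.79-fold higher at 4 h (log2 0.84), about the size of the difference between the untreated libraries (log2 -0.83). XRN2 lies at chr20:21283969-21370463 (plus strand), and an unnamed lncRNA overlaps its exons on the other strand.

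The counts of enzymes past 2-fold were then set beside the share of all genes past it. At 2 h, 0 of 8 enzymes were 2-fold or more higher with AcFBE, beside 23.4% of the 8448 genes with a ratio, and 2 of 8 (XPO5 and EIF2C2) were 2-fold or more lower, beside 18.4%. At 4 h, 1 of 8 (RAN) was higher, beside 12.6% of 8651 genes, and 3 of 8 (DGCR8, TARBP2 and EIF2C2) were lower, beside 20.9%. The median log2 ratio of the 8 enzymes was 0.13 at 2 h and -0.44 at 4 h, and that of all genes 0.07 and -0.18. Scaling each library to its upper quartile shifted every log2 ratio by -0.77 at 2 h and 0.36 at 4 h. DROSHA (-0.72), TARBP2 (-0.09), PRKRA (-0.17) and XRN2 (-0.56) were then lower with AcFBE at 2 h and RAN was at 0.16, while at 4 h RAN (1.80) and XRN2 (1.20) were both 2-fold or more higher and DROSHA was at 0.36. Treated libraries lay on 1 side of both untreated ones for 5 of the 8 enzymes. RAN and XRN2 were above, as were 21.4% of the 7678 genes present in all libraries, and DGCR8, XPO5 and EIF2C2 were below, as were 27.7%. A fit of treatment with time as the block over the 4 libraries (limma on log2(FPKM + 1), 1 residual degree of freedom) called 0 of 8 enzymes at an adjusted p under 0.05, beside 0.0184% of 5445 genes higher and 0.147% lower. At an unadjusted p under 0.05 it held 1 of 8, RAN, beside 19.6% of genes. RAN had a log2 difference of 1.18 ± 0.34 (SE) in that limma fit, with an adjusted p of 0.177, and was higher in both pairs.

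The difference between the untreated libraries gives a scale for the spread. From 2U to 4U, 3 of 8 enzymes (DGCR8, TARBP2 and PRKRA) were 2-fold or more higher, beside 34.5% of 9021 genes, and 0 were lower, beside 7.27%. Among genes of at least 1 FPKM in both libraries the median absolute log2 difference was 0.56 between 4U and 2U and 0.32 between 4T and 2T. It was 0.70 for 2T over 2U and 0.81 for 4T over 4U, so a typical gene passed 0.56 too. Over all genes with a ratio it was 0.81 between 4U and 2U, which DGCR8, TARBP2 and PRKRA did not pass at 2 h. The ratios of RAN, XPO5 and EIF2C2 were larger at both times than 0.56 and than their own difference between 4U and 2U. The share of all genes doing so was not counted. Those of DGCR8 and TARBP2 were larger than 0.56 at both times but smaller than their own difference at 2 h, and those of DROSHA were smaller than both at both times. PRKRA passed 0.56 at 2 h only and XRN2 at 4 h only.

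**Figure D2:**
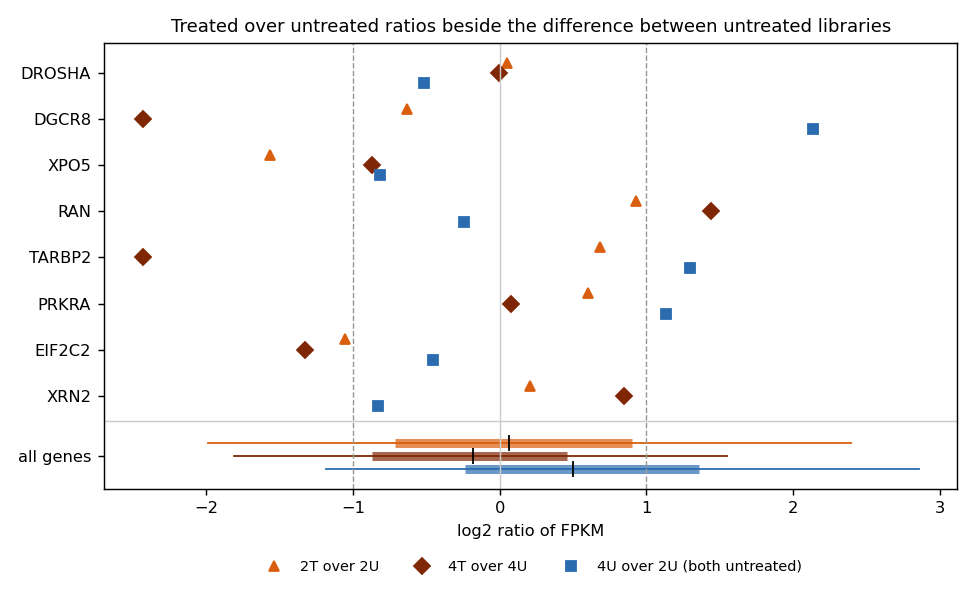
Log2 ratios of FPKM for the 8 enzymes above 0 in all libraries (1 symbol per comparison; dashed lines at 2-fold), with all genes at the bottom (thick bars, middle 50% of genes; thin lines, 5th to 95th percentile; ticks, medians). EIF2C2 lies at or beyond -1 at both times, DGCR8 and TARBP2 reach -2.43 at 4 h only, and their blue squares, the untreated 4U over 2U, lie at 2.13 and 1.30.

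A value of 0 in this table cannot be read as absence. Among protein-coding genes, 42.3% were listed at 0 in all 4 libraries. Of 30 genes that every cell uses, none was listed at 0 in all 4, but TOP1 was at 0 in 4U and POLA1 in 2T. The canonical transcripts of DICER1 and XRN1 measure 10.4 and 10.1 kb and only that of EIF2C2 is longer, at 14.6 kb, whereas the others measure 1.51 kb (TARBP2) to 5.42 kb (DROSHA). Over the 10 enzymes, DICER1 and XRN1 at 0 included, the level went down with length (Spearman rho -0.85, n = 10 genes of the same 4 libraries, given as a description). The same held across the table among genes above 0, whose median level was 8.02 FPKM for transcripts under 2 kb and 0.199 FPKM for those of 8 kb or more. The share of protein-coding genes at 0 in all 4 libraries was 48.5% under 2 kb, 37.4% at 4 to 6 kb and 44.6% at 8 kb or more, with no steady trend. Among the 30 genes that every cell uses, CLTC (8.37 kb) stood at 4.11 to 16.1 FPKM and DYNC1H1 (19.9 kb) at 1.10 to 1.92 FPKM. The part of length, or of the poly(A) selection, in the zeros of DICER1 and XRN1 was not tested.

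**Figure D3:**
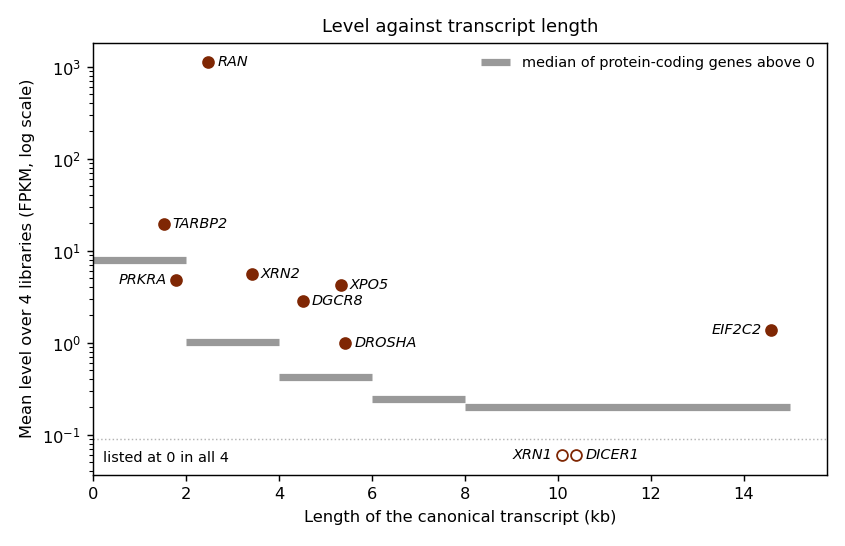
Mean level over the 4 libraries (FPKM, log axis) against the length of the canonical transcript (kb) for the 10 enzymes (points), with grey bars for the median level of protein-coding genes above 0 in each length class, the last class drawn to 15 kb. The enzymes above 0 lie above the bar of their class, RAN at 1116 FPKM the farthest, except PRKRA, which lies below it at 4.75 FPKM. The open points of DICER1 and XRN1 are listed at 0.

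The wider pathway was counted from lists of cofactors for each step, 95 genes in all, of which 64 were above 0 in all 4 libraries. At 2 h, 25 of 73 with a ratio were 2-fold or more higher with AcFBE and 9 were lower, with a median log2 ratio of 0.42. At 4 h, 14 of 72 were higher and 5 lower, with a median of 0.33. The shares of all genes are those given above for the enzymes (23.4% and 18.4% at 2 h, 12.6% and 20.9% at 4 h). The untreated libraries alone put 23 of 75 higher and 9 lower at 4 h than at 2 h, beside 34.5% and 7.27% of all genes. At both times, 5 of 64 cofactors (7.81%) were 2-fold or more higher and 2 (3.12%) lower, near the 6.56% and below the 8.01% of all genes. Genes at 0 in all 4 libraries numbered 9. They were TSNAX (dicing), EIF2C4 and TNRC6B (loading), and ZCCHC6, PAPD5, LIN28A, LIN28B, PAN2 and PAN3 (tailing and decay), and their median canonical length was 5.59 kb against 3.49 kb for the other 86.

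Cofactors of nuclear cleavage, most of them RNA binding proteins and helicases, had more members higher than lower with AcFBE, from a list chosen with results known. Of 12 with a ratio, 8 were 2-fold or more higher and 1 lower at 2 h, with a median log2 ratio of 1.64, and 5 were higher and 0 lower at 4 h, with a median of 0.82. The shares of all genes past 2-fold were 23.4% higher and 18.4% lower at 2 h, and 12.6% higher and 20.9% lower at 4 h. The untreated libraries differed as well, with 6 of 12 higher and 2 lower in 4U than in 2U and a median log2 ratio of 0.94. Of all genes, 34.5% were higher and 7.27% lower in 4U than in 2U, with a median of 0.50. HNRNPA1, a splicing repressor that also binds the hairpin of miR-18a, stood at 15.97 FPKM (2U), 60.6 (2T), 38.0 (4U) and 108.9 FPKM (4T). SRSF3, a splicing factor that recognises a motif beside hairpins, stood at 19.7, 79.7, 20.9 and 101.3 FPKM in the same order. The RNA helicase DHX9 stood at 0.281, 7.02, 1.46 and 6.66 FPKM. Both treated libraries were above both untreated ones for each of these 3 genes and for 8 of the 12 above 0 in all libraries, beside 21.4% of all genes. DROSHA itself, with log2 ratios of 0.05 and -0.01, and DGCR8, with -0.63 and -2.43, did not share this direction.

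Cofactors of the later steps are counted beside the shares of all genes past 2-fold. These were 23.4% higher and 18.4% lower at 2 h, and 12.6% higher and 20.9% lower at 4 h. Of the genes of the RAN cycle and of export, 2 of 8 were 2-fold or more higher and 2 lower at 2 h, and 2 of 7 higher and 2 lower at 4 h. NXT1, a cofactor of mRNA export, was lower at both times, at 103.03 FPKM (2U), 38.8 (2T), 70.0 (4U) and 32.0 FPKM (4T). Among dicing cofactors, 1 of 3 with a ratio, DHX9 again, was higher at each time and none was lower. For loading and silencing, 3 of 15 were higher and 2 lower at 2 h, and 3 of 15 higher and 1 lower at 4 h. In this list the chaperone HSPA8, which helps Argonaute take up the duplex, stood at 416, 1850, 855 and 2148 FPKM in 2U, 2T, 4U and 4T. The helicase MOV10, an Argonaute partner, went the other way at 3.88, 1.34, 4.42 and 1.65 FPKM, in the direction of EIF2C2. For decay and tailing, 10 of 33 were higher and 3 lower at 2 h, and 4 of 35 higher and 2 lower at 4 h. For partners of XRN2, 2 of 4 were higher and 1 lower at 2 h, and 0 of 2 were higher or lower at 4 h. As a check on the scale, 30 genes that every cell uses gave 8 of 29 higher and 3 lower at 2 h, and 6 of 29 higher and 2 lower at 4 h.

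**Figure D4:**
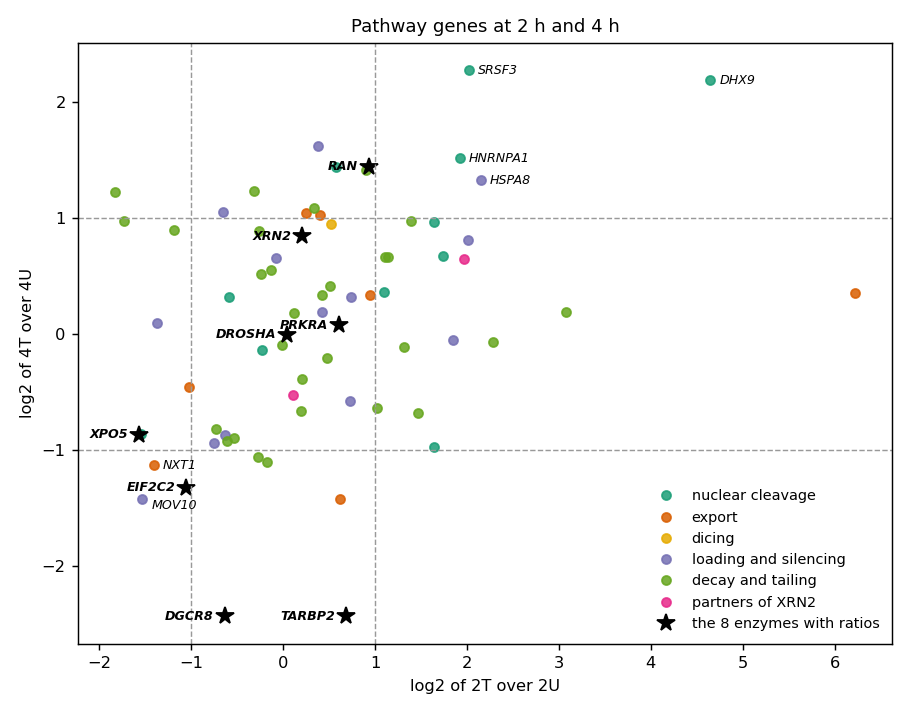
Log2 ratio at 4 h (4T over 4U) against that at 2 h (2T over 2U) for pathway cofactors above 0 in all 4 libraries (1 left out), coloured by step (genes of 2 lists drawn once), with the 8 enzymes as black stars and dashed lines at 2-fold. SRSF3, DHX9, HNRNPA1 and HSPA8 lie in the upper right corner and EIF2C2, MOV10 and NXT1 in the lower left.

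Small RNA counts gave a view of miRNAs whose making or targets bear on single enzymes. The count of a miRNA was divided by the quality reads of its library and scaled to 1000000 (RPM), and libraries with and without AcFBE from 1 batch and time formed 4 pairs in SK-HEP-1. The pairs came from the first and the second batch, each at 2 h and 4 h. The SD and the permutation test below treat the times of a batch as independent, which was not tested. The level of miR-484, the DROSHA-independent miRNA with enough reads, was lower with AcFBE in every pair. It stood, in the first batch, at 1263 RPM (2U), 224.5 (2T), 789 (4U) and 264 RPM (4T), and in the second at 344, 105, 181 and 74.2 RPM. Both treated libraries were below both untreated ones in each batch. Most miRNAs with at least 10 reads in a library of the pair and above 0 in both were lower too on this RPM scale. They numbered 177 of 191 (2 h) and 182 of 197 (4 h) in the first batch, and 190 of 202 and 174 of 198 in the second. The log2 ratio of miR-484 was -1.77 ± 0.51 (SD, n = 4 pairs, lower in 4 of 4). The median over all miRNAs with at least 10 reads was -1.45 ± 0.37 (SD over the 4 pairs). Within pairs, miR-484 differed from that median by -0.32 ± 0.31 on the log2 scale and was below it in 3 of 4 (exact sign-flip permutation test, two-sided, p = 0.25, Benjamini-Hochberg adjusted over 12 miRNAs 0.6, where 4 pairs allow no p under 0.125). A further 4 names made without DROSHA (miR-320a, miR-877*, miR-1226) or DICER1 (miR-451) were listed in SK-HEP-1, each with under 10 reads in at least 1 library. In BNL CL.2, miR-877*, whose hairpin is a spliced intron, had 28 to 117 reads and log2 ratios of 0.38 at 2 h and -0.49 at 4 h.

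The miRNAs known to target DICER1 had mean log2 ratios from -1.84 to 0.05, and with DICER1 at 0 they could not be set beside its mRNA. In SK-HEP-1, miR-107 had a log2 ratio of -1.55 ± 0.50 and miR-103a one of -1.15 ± 0.95 (SD, n = 4 pairs), each lower in 4 of 4. Most miRNAs were lower in each of these pairs, as counted above, so being lower is not particular to those listed here. Of the let-7 family, let-7f (-1.78 ± 0.57), let-7g (-1.84 ± 0.73), miR-98 (-1.62 ± 0.51), let-7i (-1.40 ± 1.02) and let-7a (-0.91 ± 0.40) were lower in 4 of 4 pairs. In contrast let-7b stood at 0.05 ± 0.59, lower in 1 of 4, and let-7d at 0.04 ± 1.86, lower in 3 of 4. The mean of let-7d rested on the 2 h pair of the second batch (log2 2.73), and was -1.05 in the first batch alone and 1.12 in the second. Batches also differed for let-7i (-2.19 in the first, -0.62 in the second). Of the passenger arms with at least 10 reads in all 8 libraries, let-7i* stood at -1.53 ± 0.78 (lower in 4 of 4, -2.12 and -0.94 by batch) and let-7d* at -0.10 ± 0.44 (lower in 3 of 4). Relative to the median of all miRNAs, let-7a was higher by 0.54 ± 0.39 and let-7b by 1.502 ± 0.80. Higher too were let-7d (1.48 ± 1.66) and its passenger arm let-7d* (1.35 ± 0.67). Each of these was above the median in 4 of 4 pairs (exact permutation test, p = 0.125, the smallest that 4 pairs allow). Adjusted over the 12 miRNAs, that test gave 0.375 for each. The scale decided some directions, since per miRNA reads in place of quality reads the mean log2 ratio was 0.59 for let-7a, 0.34 for miR-103a, 0.090 for let-7i and -0.28 for miR-484. In the single BNL CL.2 pairs the median of all miRNAs was -0.34 at 2 h and 0.01 at 4 h. At these times let-7a stood at 0.46 and 2.55, miR-103 at -0.17 and -0.57, and miR-107 at -0.56 and -0.85. Passenger arms aside, the rest of the let-7 family with at least 10 reads in each library was mixed at 2 h. Higher at both times were let-7b (1.61 and 1.69), let-7c (0.54 and 3.61) and let-7d (2.91 and 0.85). Lower at 2 h and higher at 4 h were let-7f (-0.37 and 0.87), let-7g (-0.89 and 0.38) and miR-98 (-0.02 and 1.08).

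**Figure D5:**
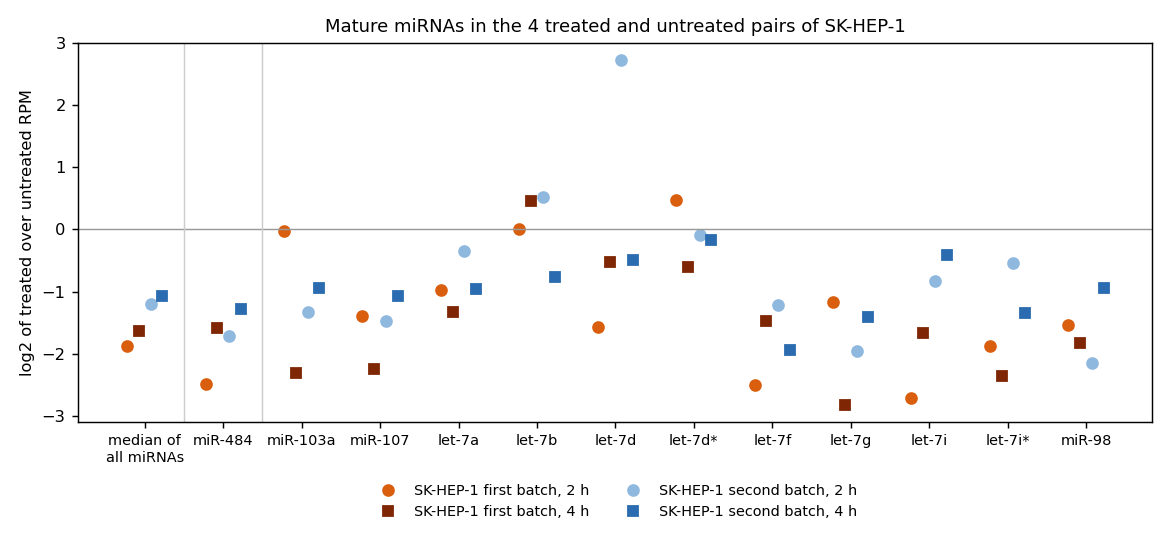
Log2 ratio of treated over untreated RPM in the 4 SK-HEP-1 pairs (1 symbol per pair) for the median of all miRNAs and for the 12 listed miRNAs with at least 10 reads in all 8 libraries. Only let-7b, let-7d and let-7d* have pairs above 0, the highest let-7d at 2.73, and miR-484, from -2.49 to -1.29, overlaps the median of all miRNAs, from -1.88 to -1.08.

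The transcript of DGCR8 is itself a source of miRNAs, since MIR3618 and MIR1306 lie in its exons and are cut out by the enzyme that DGCR8 serves. Neither was listed for SK-HEP-1. In BNL CL.2, miR-1306-3p had 2 reads in 2U and 0 in 2T, 4U and 4T, too few for any ratio.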

How the data were processed

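Poly(A) RNA and small RNA were sequenced on SOLiD instruments. The authors deposited FPKM per gene for 4 SK-HEP-1 libraries (mapped to hg19 and summarised with Cufflinks) and raw read counts per known miRNA for 8 SK-HEP-1 and 4 BNL CL.2 libraries. The members and gene lists were chosen with earlier results of these data known. FPKM ratios used no pseudocount, only genes above 0 in both libraries, and were counted at 2-fold or more. Cofactors were named where they passed that fold in the same direction at both times, or were listed at 0 in every library. 1 cofactor that met this rule is counted but not reported here by name. With 1 mRNA library per condition no test was run at each time, and limma 3.58.1 (R 4.3.3) fitted treatment with time as the block to genes with a mean of at least 1 FPKM. miRNA counts were divided by the study's quality reads (per 1000000), and mean and SD were taken over pairs of 1 batch and time. The batches were separate cultures run on different sequencers, whose parts in their spread cannot be told apart. miR-103b had the counts of miR-103a in all 8 libraries and is its reverse complement, so it was counted once. Positions and transcript lengths came from GENCODE v44 on GRCh37, the build of the mRNA data, with 93.3% of symbols matched. Calculations used Python 3.11.15, pandas 2.3.3, numpy 2.4.6, scipy 1.17.1 and matplotlib 3.10.9. The ratio, count and limma steps were tested on simulated data. Transcript length, the untreated library of the other time, the limma fit and the permutation test against the median of all miRNAs were added after seeing the data.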

Additional observations from a re-analysis of the deposited data

Results flagged for a closer look

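The direction of the log2 ratio of treated over untreated differed between 2 h and 4 h for 2 of the 8 enzymes above 0 in all libraries. TARBP2 went from 0.68 to -2.43, a difference of -3.11, while its untreated libraries differed by 1.30 (4U over 2U). DROSHA went from 0.05 to -0.01, a difference of -0.053. Each time holds 1 pair of libraries, so the difference was not tested, and 37.2% of the 7678 genes present in all libraries also had opposite directions at the 2 times.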

How the results depend on the processing

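A log2 FPKM ratio was taken as moved where it shifted by more than 0.56, the median absolute difference between the untreated libraries at 1 FPKM or more. A miRNA mean was taken as moved where it shifted by more than its SD over pairs, and a count beyond 1.5 times. Reversed means a change of sign in a value past 2-fold, or in a miRNA lower in 4 of 4 pairs. On these rules 167 values were the same, 50 moved and 3 reversed, and 17 of 180 log2 values changed sign in all. Enzymes lower at 2 h numbered 1 of 8 with a pseudocount of 1 or 0.1 FPKM and against the other untreated library. Enzymes higher at 2 h numbered 1 with the untreated libraries averaged, 3 at 1.5-fold and 2 against the other untreated library, and at 4 h 2 with centring, upper quartile scaling, 1.5-fold and the other untreated library. The median of the enzymes at 2 h was -0.64 with upper quartile scaling, which also turned DROSHA, TARBP2, PRKRA and XRN2 negative, and -0.57 against the other untreated library, which turned TARBP2 (-0.62) and PRKRA (-0.53). Cofactors at 2 h numbered 14 higher and 5 lower at 1 FPKM or more in both, beside 17.5% and 17.2% of 4325 genes. Against the other untreated library 12 were higher at 2 h and 31 at 4 h. The shares of all genes were not counted under the other alternatives. The counts there describe the settings and are no result about the enzymes or cofactors. RAN stayed above 0 (0.16 to 1.17 at 2 h, 1.20 to 1.80 at 4 h), and EIF2C2 below (-1.83 to -0.60, -1.78 to -0.66). XPO5 (-2.34 to -0.75, -1.69 to -0.51) and DGCR8 (-2.77 to -0.36, -2.43 to -0.30) stayed below 0 as well. Per miRNA reads, miR-484 was at -0.28, and let-7a (0.59), let-7i (0.090) and miR-103a (0.34) reversed. The median of all miRNAs ran from -0.19 to 0.21 over the SK-HEP-1 pairs on that scale. The cause was not tested. With time as the replicate block, the paired limma fit gave -1.09 for DGCR8, -0.97 for XPO5, 1.18 for RAN and -0.65 for EIF2C2, and called none of the 8 enzymes. The miRNA ratios are taken within batch, and miR-484 was at -2.04 to -1.50 with either batch left out. The unknown read depth limits every value near 1 FPKM.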
